A study of Saccharomyces cerevisiae with 15 samples.

Results

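Genome-wide binding of the transcription factor Fhl1 was measured in rapamycin-treated budding yeast (Saccharomyces cerevisiae, W303 background) on 5 of the 15 arrays of the series. The 5 were chosen by their titles, and all 6803 probes of each entered the ranking described here. Each array set DNA immunoprecipitated from a strain whose FHL1 gene carries 13 copies of the myc epitope (FHL1-13myc-HIS3MX6) against DNA from untagged W303, both recovered with a monoclonal anti-myc antibody. The tagged cells were in log phase in YPD, a rich medium, and had received rapamycin at 200 ng/mL. On all arrays of the series the culture temperature was 30 °C and crosslinking lasted 30 min. The closest group is 3 arrays of the same tagged strain without the drug. A further 4 arrays of untreated IFH1-13myc-TRP1MX6 cells are given beside some values. The remaining arrays, of Ifh1-tagged cells with rapamycin at 200 ng/mL, entered only the fits to all 15 arrays. The sources used here do not say whether the untagged reference of the rapamycin arrays was itself treated. The labels call the replicates biological, without saying that each came from a separate culture, so the p-values measure the spread between these arrays.

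Fhl1 is a forkhead-type factor that binds upstream of cytosolic ribosomal protein (RP) genes together with the general regulatory factor Rap1. The coactivator Ifh1 binds the forkhead-associated domain of Fhl1. The corepressor Crf1 competes with Ifh1 for that domain when the TOR kinases, the targets of rapamycin, are inhibited. RP genes make up a large part of the transcription of a growing yeast cell, and most are present as pairs of paralogues.

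The orientation of each array had to be read from the data. The labels mention one dye swap in each condition without saying which array it was. Each array was therefore centred on its median and turned so that the median of the probes facing 5′ ends of large-subunit (RPL) genes was positive, which reversed replicates 1, 3 and 5. A single dye swap would set 1 array apart, but the turn set replicates 1, 3 and 5 against replicates 2 and 4. This mismatch with the labels was not resolved, and every mean and call below rests on the turn. As deposited, pairs of the 5 arrays correlated as low as -0.16 over all probes and -0.69 over RP promoter probes. The direction of RPL probes is thus fixed by construction, and their p-values against 0 draw on the turn. The small-subunit (RPS) promoters that face no RPL gene were not used for the turn, and they gave the same turn on all 5 arrays. Values below are log2 ratios of tagged over untagged chromatin on this scale, so 0 is the median probe of an array.

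The highest promoters in rapamycin-treated cells were those of RP genes. By mean over the 5 arrays, the first 44 ranks were all held by RP promoters, and the top 100 held 79 of the 136 RP promoter probes on the array. In limma, 52 probes were called different from 0 (adjusted p under 0.05), all higher, which is 0.764% of all probes. All 52 faced the 5′ end of an RP gene. They were 38.2% of the 136 RP probes. No probe was called lower (0%), while 163 had an unadjusted p under 0.05 on that side. Of the small-subunit promoters facing no RPL gene, 21 of 55 were called, and the RPL list had 31 of 81. Over all RP probes the median of the means was 1.06, a ratio of 2.09, against 0.004 over all probes. Of the RP probes, 95 lay above 0 on all 5 arrays (69.9%), compared with 4.67% of all probes. That count includes the RPL probes that set the turn. Of the 55 small-subunit promoters facing no RPL gene, 37 lay above 0 on all 5 arrays, and their median of means was 1.01.

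**Figure D1:**
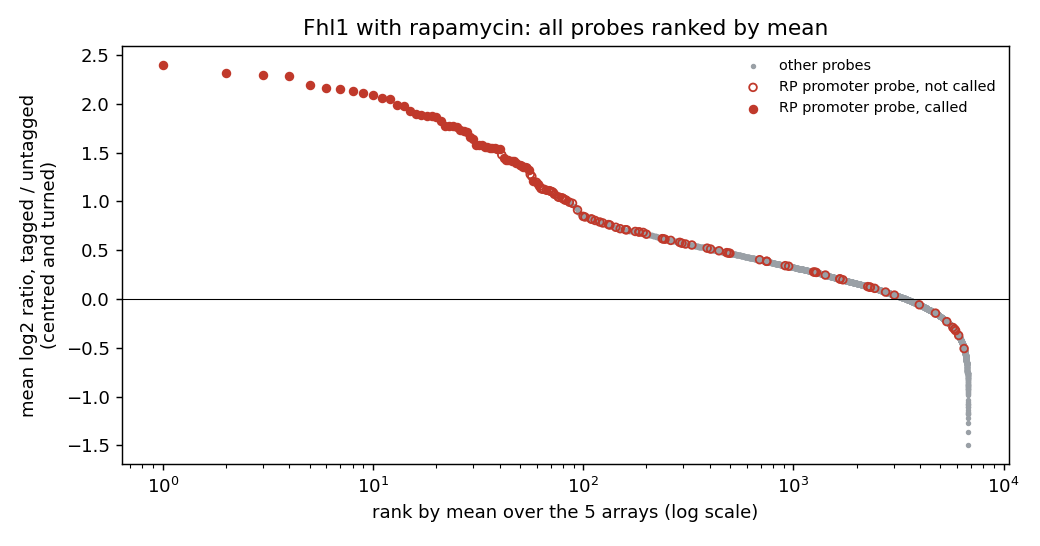
Mean log2 ratio over the 5 arrays (vertical axis) against rank on a log scale (horizontal axis) for 6803 probes; filled red points are the 52 called RP promoters, open red points the other RP promoters and grey points all other probes. Red points fill the first 44 ranks, and the first other probe stands at rank 45.

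The count rested on some arrays more than others. It fell to 10 without replicate 1 and to 23 without replicate 2, all of them RP promoters.

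Large-subunit promoters headed the ranking. They are among the RPL probes that set the turn, so their side of 0 and their p-values draw on it. RPL6A, which encodes a protein of the large subunit, stood first with 3.14, 2.57, 2.37, 2.29 and 1.63 on replicates 1 to 5. Every array placed it well above the median probe, with replicate 5 lowest. The mean was 2.40 ± 0.54 (SD, n = 5), a 5.28-fold ratio (limma adjusted p = 0.00229). RPL16A read 2.29, 2.31, 2.12, 2.79 and 1.47. Its paralogue RPL16B was also called, with a mean of 1.76. The probe RPL42B/CHS7, between a large-subunit gene and CHS7, whose product is needed for export of a chitin synthase, read 2.52, 2.38, 2.28, 1.43 and 2.17. Replicate 4 was the low one there, unlike at RPL16A where it was the high one. RPL2A (2.16 ± 0.62), RXT3/RPL31A (2.09 ± 0.56) and RPL20B (2.07 ± 0.94) followed. RPL33B/IRC13 (1.88 ± 0.49) and YBL028C/RPL19B (1.87 ± 0.70) were also among the 20 highest.

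Small-subunit promoters reached the same heights. The probe TEM1/RPS1B lies between RPS1B and TEM1, which encodes a GTPase of the mitotic exit network. It read 3.46, 2.48, 1.58, 2.15 and 1.83, with a mean of 2.30 ± 0.73 (limma adjusted p = 0.00424). FRE8/RPS0B read 2.67, 1.93, 2.15, 2.45 and 2.24. Its 5 values were close together, and its mean of 2.29 ± 0.29 was a 4.89-fold ratio (limma adjusted p = 0.00229). YGR117C/RPS23A (2.14 ± 0.32) and YML6/RPS17A (1.87 ± 0.33) were similarly even between arrays, the latter shared with YML6, a gene for a mitochondrial ribosomal protein. SOP4/RPS14B (2.11 ± 0.74), RPS11B (2.05 ± 0.70), RPS19B (1.99 ± 0.85) and RPS18B (1.98 ± 0.67) varied more. YOR292C/RPS10A (1.90 ± 0.51) and RPS4B/MNL1 (1.89 ± 0.50) completed the small-subunit members of the 20 highest.

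The probe RPS15/RPP2A, which faces one gene of each subunit, showed the widest spread among these. It read 3.18, 1.77, 1.03, 2.98 and 0.65, and passed with an adjusted p of 0.0407 in limma (mean 1.92 ± 1.14). Replicates 1 and 4 were high there and replicates 3 and 5 low. Other divergent RP pairs with a shared probe were RPL13B/RPS16A (1.77 ± 0.60) and RPS22A/RPL39 (1.42 ± 0.61), both called and both named here after their values were seen. Of the 5 probes shared by 2 RP genes, 3 were called. Of the 63 probes facing 1 RP gene alone, 24 were called, and of the 68 shared with another kind of gene, 25. The gene on the other side of a shared promoter cannot be told apart from the RP gene by these probes.

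At the lower end of the called promoters, some were even between arrays and others were not. RPS13 read 0.96, 1.97, 0.90, 1.98 and 0.94, with replicates 2 and 4 far above the others (mean 1.35 ± 0.57). RPL36B read 1.48, 1.28, 0.99, 1.25 and 1.08, with a mean of 1.21 ± 0.19 (limma adjusted p = 0.0252). UTP6/RPS18A was the lowest called, at rank 61 with a mean of 1.17 ± 0.32, a 2.26-fold ratio. Just outside the threshold were RPL35A (mean 1.34, adjusted p = 0.0517 in limma) and RPL8A (mean 1.05). At RPL24A/RPL30, replicate 4 stood at 3.16 and replicate 5 at 0.12, and the mean of 1.36 ± 1.17 was not called (limma adjusted p = 0.282).

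**Figure D2:**
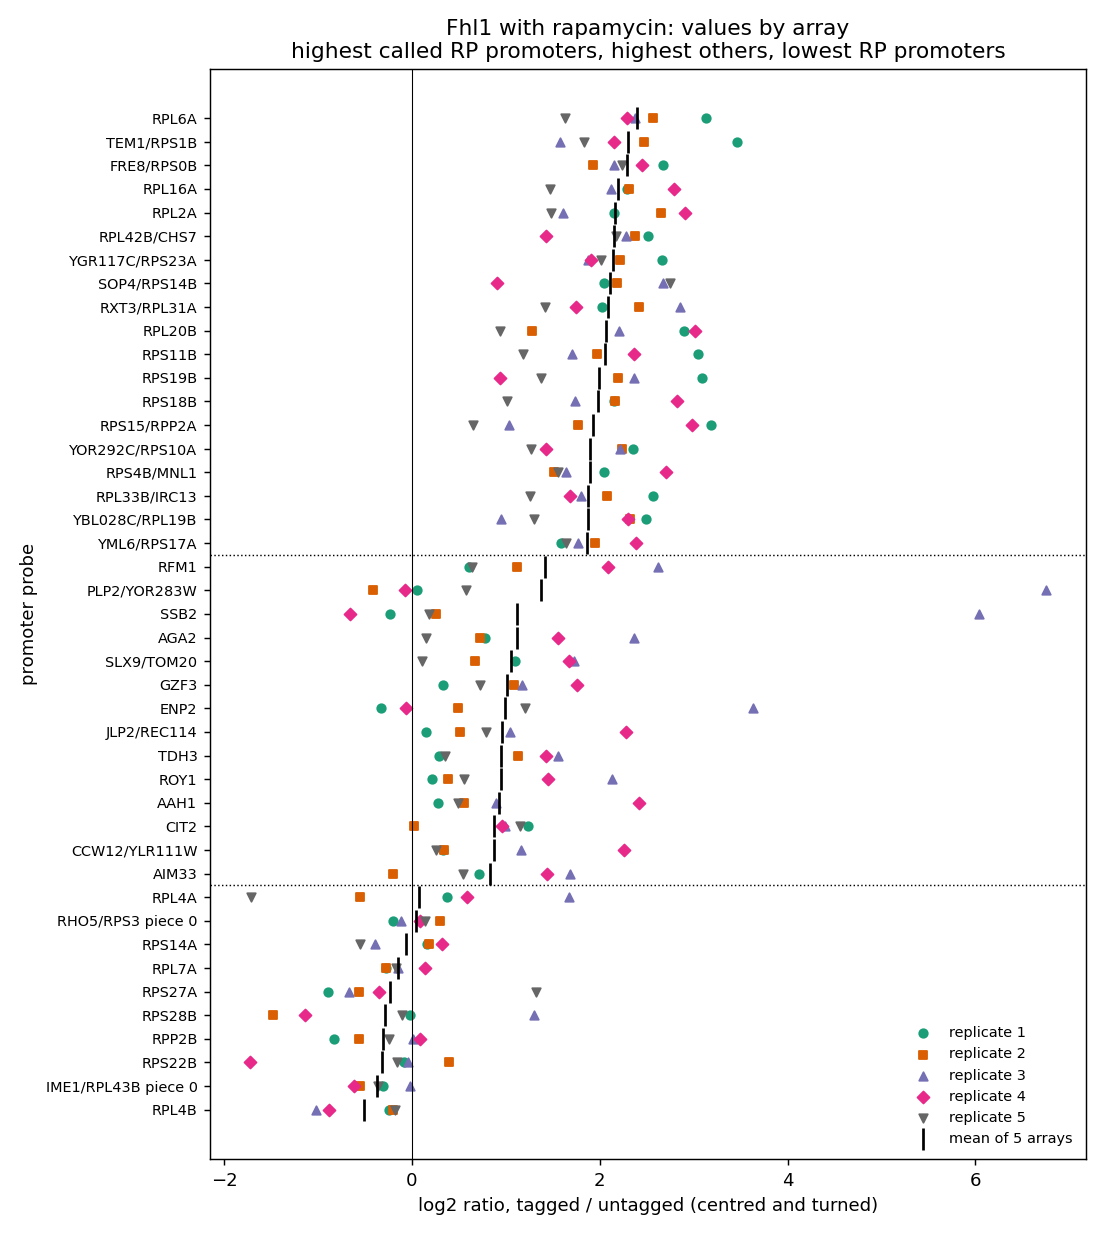
Log2 ratio of tagged over untagged chromatin (horizontal axis) on each of the 5 rapamycin arrays for 19 of the 20 highest called RP promoters (top), 14 of the 15 highest promoters outside RP genes (middle) and the 10 lowest RP promoters (bottom); symbols are arrays and black bars are means. The lowest value in the top block is 0.65, while several means in the middle block rest on replicate 3, as at PLP2/YOR283W with 6.75.

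Paralogous RP genes often differed in the level at their promoters. Both members have a promoter probe in 58 pairs. Both were called in 10 pairs, one in 29 and neither in 19. RPS6A and RPS6B stood at nearly the same mean (1.55 and 1.54), as did RPL27A and RPL27B (1.45 and 1.42). The widest gaps were between RPP2A (1.92) and RPP2B (-0.31), RPS14B (2.11) and RPS14A (-0.06), and RPS11B (2.05) and RPS11A (0.28). RPS22A (1.42) and RPS22B (-0.32), and RPS0B (2.29) and RPS0A (0.72), were also far apart. The 1.92 and 1.42 are values of probes shared with RPS15 and RPL39, so they cannot be given to RPP2A or RPS22A alone. Where a gene has several probes, its highest mean was taken. Whether the members of a pair differ was not tested. Of the 19 RP genes in single copy, 6 had a called promoter, among them RPS13, RPL28, RPL32 and, through those shared probes, RPS15 and RPL39.

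Not every RP promoter was high. The lowest was RPL4B, with -0.24, -0.20, -1.02, -0.89 and -0.18 on the 5 arrays. All 5 values were below the median probe, and the mean was -0.51 ± 0.41 (limma adjusted p = 0.82). RPS22B, RPP2B, RPS28B and RPL7A had means of -0.32, -0.31, -0.29 and -0.14. RPS14A had a mean of -0.06. RPL4B, RPS22B, RPS28B and RPL4A (mean 0.07) belong to a list of 7 RP promoter probes known for the factor Abf1. None of the 7 was called, and their median of means was 0.07. The other members were YOR062C/RPL3 (0.11), RPP1A (0.20) and RPS28A/GLN4 (0.66). RPS28A/GLN4 reached 1.96 on replicate 1 but lay between -0.02 and 0.63 on the others.

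Some RP genes have more than one probe, and these disagreed. Of the pieces of the RHO5/RPS3 region, piece 1 read 0.64, 1.20, 0.75, 0.61 and 0.83, with a mean of 0.81 ± 0.24, and piece 0 had a mean of 0.04 ± 0.20. Piece 1 lay above piece 0 on every array. The region between IME1, the master inducer of meiosis, and RPL43B had means of -0.37 at piece 0 and 0.12 at piece 1. The lower of the probes assigned to RPS27A had a mean of -0.23, with 1.32 on replicate 5 and values below 0 on the other arrays. Without the build of the array, which the sources used here do not give, the distance of each piece from a gene start was not used.

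RP promoters stood above the rest on each array, but by different margins. The median over the 136 RP probes was 1.48, 1.23, 0.92, 1.06 and 0.65 on replicates 1 to 5. Between 112 and 123 of them lay above 0. These medians and counts include the RPL probes that set the turn. Over the RPS promoters facing no RPL gene, the medians were 1.09, 1.21, 0.96, 1.00 and 0.85. The count of RP probes among the 100 highest of an array was 71, 54, 9, 32 and 23. Replicate 3 stood apart, with no RP probe in its top 25 and 25 probes outside RP promoters above 3, where the other arrays had at most 1. The SD of probes outside RP promoters was 0.82 and 0.83 on replicates 3 and 4, and 0.54 to 0.58 on the others. Between pairs of arrays the RP probes correlated at 0.41 to 0.69, with a median of 0.56 over 10 pairs. The remaining probes correlated at -0.10 to 0.09. These are correlations across probes, which share amplification and hybridisation and are not independent. They were taken after the turn, which was set by the RPL probes among the RP probes. The sign of each RP correlation thus depends on the turn, while its size does not. As deposited, the RP correlations ran from -0.69 to 0.59. Without replicate 3, limma called 37 probes higher, all RP promoters, and the first 60 ranks were RP promoters.

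**Figure D3:**
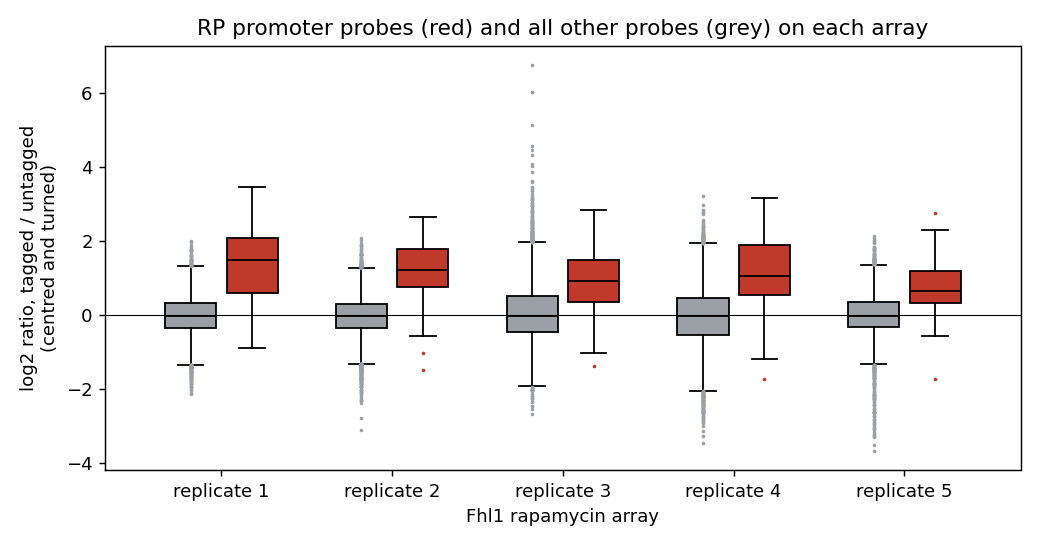
Log2 ratios (vertical axis) of the 136 RP promoter probes (red) and all other probes (grey) on the 5 rapamycin arrays; boxes span the quartiles with the median as a line, whiskers reach 1.5 interquartile ranges and dots are probes beyond them. The red medians run from 0.65 on replicate 5 to 1.48 on replicate 1, and replicate 3 has grey points up to 6.75.

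Outside RP genes, no promoter was called. The highest was that of RFM1, which encodes a partner of the repressor Sum1 and the deacetylase Hst1 at middle sporulation genes. It stood at rank 45 and read 0.61, 1.12, 2.62, 2.09 and 0.64. All arrays were above 0, with replicates 3 and 4 far above the other arrays, and the mean was 1.42 ± 0.90 (limma adjusted p = 0.108). On the 3 untreated Fhl1 arrays the same probe read -1.42, -1.96 and 0.21. It was called when the arrays were scaled to one median absolute deviation (limma adjusted p = 0.0386). That was the only setting that called RFM1, and over the 15 settings with turned arrays its limma adjusted p reached 0.317.

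The promoter between SLX9, a factor in pre-rRNA processing, and TOM20, a mitochondrial import receptor, read 1.10, 0.67, 1.72, 1.67 and 0.11. The mean of SLX9/TOM20 was 1.05 ± 0.68 (limma adjusted p = 0.231), and its untreated mean was 0.02 ± 0.59. A fit to all 15 arrays, with one spread for the 4 groups, called it (limma adjusted p = 0.0418). The Ifh1 rapamycin arrays in that fit had RPL medians of 0.03, -0.08 and -0.04 after centring. Their orientation was therefore not settled, and RPS promoters would have turned replicate 2 of them the other way. Over the 15 settings with turned arrays, the limma adjusted p of SLX9/TOM20 ran from 0.0418 to 0.9999. GZF3, a GATA-type repressor of nitrogen genes, had a mean of 1.01 ± 0.53, and TDH3, a glyceraldehyde-3-phosphate dehydrogenase gene, had 0.95 ± 0.60. For TDH3 the untreated mean was 0.77, and for GZF3 it was -0.56.

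Single arrays set several of the other high means. PLP2/YOR283W, whose first gene encodes a phosducin-like protein, read 6.75 on replicate 3 and -0.42 to 0.57 elsewhere. SSB2, a ribosome-associated chaperone gene, read 6.04 on replicate 3 and -0.66 to 0.26 elsewhere. ENP2, a gene for a nucleolar protein of pre-rRNA processing, read 3.63 there. Without replicate 3 their means were 0.03, -0.12 and 0.33. Of the 15 highest promoters outside RP genes, replicate 3 was the highest array in 10, and 9 stayed in the top 200 without it. With it their means ran from 0.84 to 1.42, and 5 of the 15 lay above 0 on all 3 untreated arrays. Others among them were JLP2/REC114 (0.96), ROY1 (0.95), AAH1 (0.93), CIT2 (0.87), CCW12/YLR111W (0.87), AIM33 (0.84) and AGA2 (1.11). The AGA2 region, upstream of a gene for an agglutinin subunit, also lies at the 3′ side of the RP gene RPL24A.

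Among probes that face no 5′ end, 2 came closest to a call. They were named after their values were seen. The region beside the tRNA gene tR(CCG)L read 1.74, 1.58, 1.33, 0.79 and 0.63, with a mean of 1.21 ± 0.49 (limma adjusted p = 0.0535). RPL26A, the RP gene with no promoter probe here, is the neighbour of the TRR4 tRNA gene in the gene table. Whether TRR4 is the gene the probe name means was not settled. The probe within the reading frame YOR235W, or IRC13, next to the RPL33B promoter, read 1.45, 0.90, 0.86, 1.07 and 1.01. Its values were even, with a mean of 1.06 ± 0.24 (limma adjusted p = 0.0577), and its untreated mean was 1.26. Both were called when arrays were weighted by their quality in limma (adjusted p = 0.0229 and 0.0303). Over the 14 settings with turned arrays that tested them, their limma adjusted p reached 0.662 and 0.9999.

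The low end of the ranking held no call. YEA6, a mitochondrial NAD+ transporter gene, read -0.85, -1.52, -0.73, -0.96 and -1.22. It was below 0 on all 5 arrays (mean -1.06 ± 0.31, limma adjusted p = 0.0706), and its untreated mean was -0.06 ± 0.26. Array weights called it lower (limma adjusted p = 0.033), as did the fits to 12 and 15 arrays (limma adjusted p = 0.0123 and 0.0245). Over the 15 settings with turned arrays, its limma adjusted p ran from 0.0123 to 0.9999. The region at the 3′ side of KIN2 and HRT3 read -1.94, -3.09, 4.47, -2.61 and -3.66, with replicate 3 opposite to the others. On the untreated arrays it read -1.93, 4.24 and -2.92. It was chosen after its values were seen, and without replicate 3 it was called lower with a mean of -2.82 (limma adjusted p = 0.00828).

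Other gene groups lay near the median probe. No probe of the lists below was called. The median of means was 0.02 over 62 mitochondrial RP probes, a count that leaves out the shared probe YML6/RPS17A, and 0.08 over 21 probes of RNA polymerase I and III. It was 0.04 over 40 ribosome biogenesis probes, with NSR1, a nucleolin homologue, at 0.57 ± 0.42. Over 38 translation factor probes it was 0.11, with TEF1 and TKL2/TEF2, both upstream of genes for elongation factor 1-alpha, at 0.79 ± 0.62 and 0.61 ± 0.66. TEF1 was highest on replicate 1 with 1.58 and lowest on replicate 3 with 0.05. For 27 glycolysis and fermentation probes the median was -0.06, with TPI1 at 0.41 ± 1.12 and ADP1/PGK1 at 0.28 ± 0.50. ADH2/UBP15, upstream of an alcohol dehydrogenase gene, was the lowest of that list at -1.08 ± 0.73. Nitrogen catabolite genes (30 probes) had -0.07, stress response genes (25) 0.12, mitochondrial import genes (14) 0.01 and histone genes (6) 0.02.

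The 2 lowest-p members of the remaining lists were likewise uncalled. They included YGR018C/UGA1 (0.72) and ASP3-4/YLR161W piece 1 (-0.93) for nitrogen genes, the latter called lower in the fits to 12 and 15 arrays (limma adjusted p = 0.0274 and 0.0165), GPP2/THO1 (-0.98) and SOD2 (-0.51) for stress genes, and HHT2/HHF2 (0.58) and HTA2/HTB2 (0.50) for histones. TIM22 (-0.61) stood for import, SAS10/RPC53 (-0.64) and RPA34 (-0.67) for polymerases, and MRPL10 (-0.68) for mitochondrial RP genes. Probes on tRNA genes (42) had a median of 0.16, with tM(CAU)O2 at 0.43. Those on snoRNA and snRNA genes (43) had 0.14, with SNR58 at 0.79, and long terminal repeat or Ty probes (166) 0.02. Of the 132 probes that touch an RP gene only at its 3′ end, none was called, and their median was 0.11.

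The regulators of RP genes did not stand out at their own promoters. The 16 regulator probes had a median of -0.07. FHL1 was at -0.05 ± 0.57, IFH1/UCC1 at -0.18 ± 0.61, RAP1 at -0.22 ± 0.36 and CRF1 at 0.02 ± 1.15. ARG82/HMO1, upstream of the gene for an HMG-box protein of RP and rDNA chromatin, was at 0.22 ± 0.46. SCH9, a kinase gene downstream of TOR complex 1, had 0.13 ± 0.48. FPR1, the gene for the rapamycin-binding protein, had -0.09 ± 1.32 and ranged from -1.75 to 1.95. ARP3/TOR1 and TOR2 were at -0.03 ± 0.37 and -0.33 ± 0.65, RAD27/ABF1 at -0.49 ± 0.63 and DOT6 at -0.14 ± 0.33. The probes assigned to DUS3/SFP1 had means of 0.38 and 0.10, those of STB3 0.05 and -0.91, and YBL055C/TOD6 -0.28. Strain marker loci (5 probes) had a median of 0.16, with MRM1/HIS3 at 0.16 ± 0.82, URA3 at 0.19, ADE2 at 0.19, SOK1/TRP1 at -0.11 and CAN1/NPR2 at -0.41.

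Set against untreated cells, no probe was called different. The limma fit to all 8 Fhl1 arrays called 0 probes (0%), with 232 below 0.05 before adjustment and a smallest adjusted p of 0.999. All 52 promoters called in rapamycin were above 0 on all 3 untreated arrays, where 12.1% of all probes were. For the RPL promoters among them, the turn had set the direction on the untreated arrays too. The RP level, the median over RP probes on each array including the RPL probes that set its sign, was 1.07 ± 0.31 (n = 5) with rapamycin and 1.17 ± 0.38 (n = 3) without. The difference of -0.10 was within the spread (exact permutation test, two-sided p = 0.643, adjusted p = 0.821 over 4 tests). For RPS promoters facing no RPL gene, the levels were 1.02 ± 0.14 and 1.15 ± 0.35 (exact permutation p = 0.5). For RPL promoters the difference was -0.07. Their test was 1 of the 4 in the adjustment, but its p is not read because the turn had set their sign. The number of RP probes among the 100 highest, which also counts RPL probes, was 37.8 ± 24.7 and 45 ± 23.5 (exact permutation p = 0.714). The smallest p that 56 splits allow is 0.0357.

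**Figure D4:**
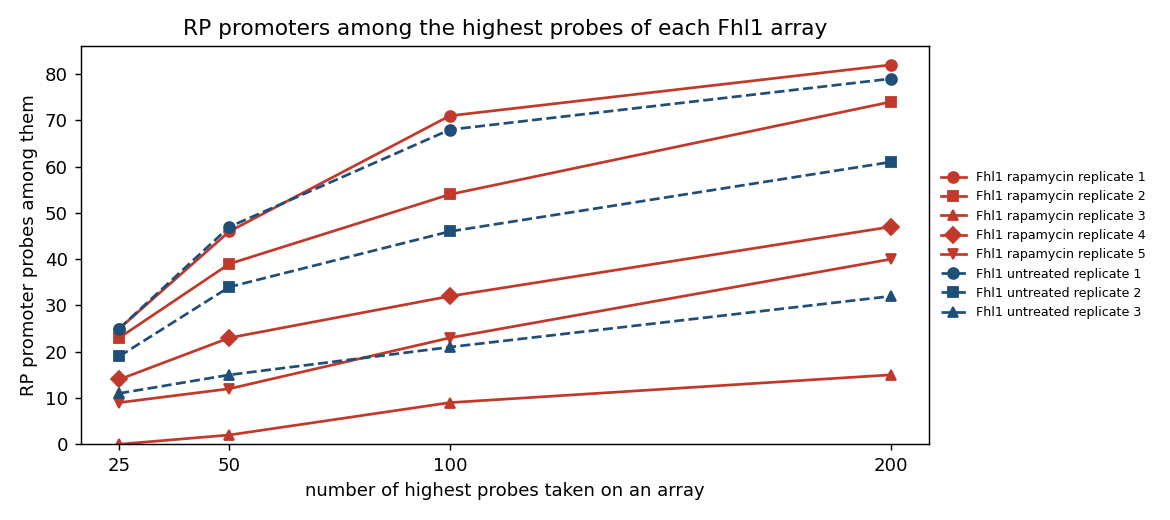
Number of RP promoter probes (vertical axis) among the 25, 50, 100 and 200 highest probes (horizontal axis) of each of the 5 rapamycin arrays (red) and 3 untreated Fhl1 arrays (blue, dashed). At 100 probes the rapamycin arrays run from 9 to 71, and the untreated arrays lie between 21 and 68.

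The arrays differed in their deposited median, from -0.66 to 1.24 with rapamycin. Grouping the arrays by that median, the RP level with rapamycin was 0.34 lower in the high class (1 array each), 0.10 lower in the low class (1 each) and 0.24 lower in the middle class (3 against 1). For RPS promoters facing no RPL gene, the level was 0.25 lower in the high class and 0.37 lower in the middle class, but 0.08 higher in the low class. The count of RP probes in the top 100 differed by -37 in the high class and was also lower in the middle class. In the low class that count was higher, by 2. These classes hold too few arrays for a test.

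At single promoters the largest changes by p did not pass. Arrays of the conditions did not overlap at 2.65% of all probes, and at 4 of the 136 RP probes, a share close to that of all probes. RPL9A was one of these, with 1.77 ± 0.48 against 0.97 ± 0.24. RPS21B/LCB3, with 1.64 ± 0.18 against 2.56 ± 0.51, and RPS27B, with 1.36 ± 0.30 against 2.22 ± 0.60, lay on the other side. For the difference, RPL9A, RPS21B/LCB3 and RPS27B each had a limma adjusted p of 0.999. For RP probes the median standard error of the difference was 0.42 and the median difference -0.10.

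Outside RP genes, RFM1 differed by 2.47 on the log2 scale (limma adjusted p = 0.999), and JLP2/REC114, whose second gene acts in meiotic recombination, by 2.24. JLP2/REC114 lay at -1.28 ± 0.34 in untreated cells and at 0.96 ± 0.81 with rapamycin. GZF3 differed by 1.57 and the regions named for the repeats YPRCdelta19 and YCRCdelta14 by 1.51 and 1.86. The other way, piece 0 of the region between CYC3 and CDC19, the gene for pyruvate kinase, stood at -0.61 ± 0.39 with rapamycin and at 0.77 ± 0.05 in untreated cells. All 5 rapamycin arrays read below 0 there. EST1/TOP3 (-1.19), the 3′ side of HFL1/MRS4 (-1.42), the region named for tG(GCC)P2 (-1.30) and that for YOLCdelta2 (-1.22) followed. All of these had a limma adjusted p of 0.999.

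**Figure D5:**
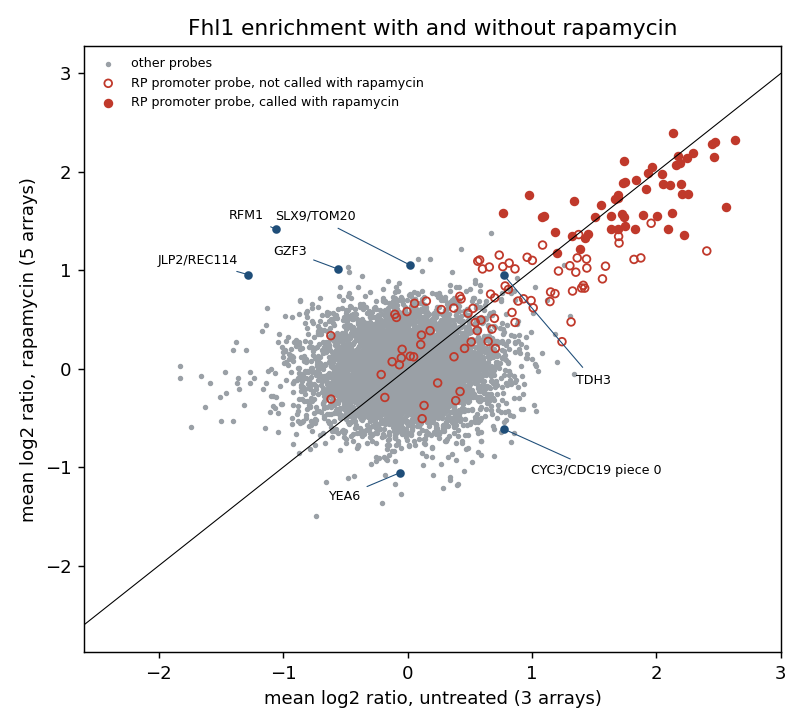
Mean log2 ratio with rapamycin (vertical axis, 5 arrays) against untreated cells (horizontal axis, 3 arrays); filled red points are RP promoters called with rapamycin, open red points other RP promoters, grey points other probes, blue points named probes and the line marks equal means. The called RP promoters lie in the upper right, while RFM1 at 1.42 and -1.06 lies far from the line.

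On the 4 untreated Ifh1 arrays the RP level was 0.86 ± 0.06. RPL6A had a mean of 1.26 ± 0.44 there, and FRE8/RPS0B 0.96 ± 0.57. RFM1 stood at -1.09 ± 0.97 and SLX9/TOM20 at 0.10 ± 0.19. The arrays may share preparations of untagged chromatin, and no test was made between these groups.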

How the data were processed

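Per the labels, DNA from tagged and untagged strains was labelled with Cy3 and Cy5 after linker-based PCR, hybridised together and read with GenePix Pro 4.0. The authors deposited one log2 ratio per probe and array. Base 2 follows from the values. The sources used here do not give direction, background correction, normalisation or genome build. Ratios were centred on the array median and turned as described, with no loess or quantile step. Fits used limma 3.58.1 in R 4.3.3 (lmFit and eBayes) with Benjamini-Hochberg adjustment over 6803 probes, two-sided, tested on simulated data. There the enrichment fit recovered 30% of added effects of 1 log2 unit and 81% of those of 2, with 8 false calls. The fit of the difference from untreated cells recovered 3% and 48%, with 5 false calls. A probe without a call can therefore still differ. Permutation tests were exact and two-sided, 2 times the smaller tail (Python 3.11.15, numpy 2.4.6, pandas 2.3.3, scipy 1.17.1). The number of arrays limits the precision, and no Fhl1 array had missing values.

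A probe belongs to each gene that starts beside it, read from the probe names and NCBI's gene table for R64, which matched 5337 of 5574 reading frames. A probe was taken to lie on the higher-coordinate side of its frame: a probe was present at 33 of 40 frames whose one gap is there, but at 2 of 43 whose one gap is opposite. No coordinates are printed. The RP probes cover 136 of 137 RP genes.

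Members, gene lists and tests were chosen with earlier results of these data known. The rule names the 20 highest and 10 lowest called probes on one side on every array, called probes and the 15 highest promoters outside RP genes, the 10 lowest RP promoters, the Abf1, regulator and strain lists, the 2 lowest-p members of each other list, PGK1, TPI1, TDH3, CDC19, TEF1, SLX9/TOM20 and the 5 lowest p each way for the difference. Some genes that it names are not reported here. Alternatives were array weights, scaling, centring, the turn, pooled fits, a replicate block and leaving out each array. Replicate numbers shared by the Fhl1 groups did not pair the arrays.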

Additional observations from a re-analysis of the deposited data

Results flagged for a closer look

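In 12 of 113 sets of 5 rapamycin values examined, 1 array lay far from the other 4 by Dixon's criterion. Chance alone meets it in about 1 set in 20 where sets are not picked by their values. Many of these sets were picked by their values, so the count cannot be set against that rate. Replicate 3 was the far array in 4 of them. PLP2/YOR283W stood at 6.75, SSB2 at 6.04, the 3′ side of KIN2/HRT3 at 4.47 and SNR6, the U6 snRNA gene, at 2.02 on that array.

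Replicate 4 was far from the others at AAH1, an adenine deaminase gene (2.42), at piece 1 of CYC3/CDC19 (0.78), at RPS22B (-1.73) and at the Ty element YCLWTy5-1A (0.86). Replicate 5 was far at RPS27A (1.32) and at the repeat YHRCtau4 (-2.14). Replicate 1 was far at CAN1/NPR2 (-1.67), and replicate 2 at CIT2 (0.027), where the other arrays read 0.96 to 1.24.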

How the results depend on the processing

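The count of 52 called probes, all at RP promoters, ranged from 10 to 45 when 1 array was left out, with 10 to 45 RP promoters higher. Without centring it was 30. With the arrays as deposited and not turned, 0 probes were called in limma (283 at an unadjusted p under 0.05), as opposite signs were averaged. Means then fell below 0 at RPL6A (-0.46), TEM1/RPS1B (-0.45), FRE8/RPS0B (-0.53), RPL16A (-0.16), RPL42B/CHS7 (-0.63), YGR117C/RPS23A (-0.49), SOP4/RPS14B (-0.87), RXT3/RPL31A (-0.42), RPL20B (-0.35), RPS11B (-0.32), RPS19B (-0.74), RPS15/RPP2A (-0.023), YOR292C/RPS10A (-0.43), RPS4B/MNL1 (-0.20), RPL33B/IRC13 (-0.37), YBL028C/RPL19B (-0.022), YML6/RPS17A (-0.13), RPL13B/RPS16A (-0.066) and RPS22A/RPL39 (-0.28). Probes outside RP promoters called higher numbered 1 in the fit to 15 arrays, 2 with array weights and 1 with scaling, in place of 0. Those called lower numbered 3 in the fits to 12 and to 15 arrays (YEA6, RNH203/YLR156W and ASP3-4/YLR161W piece 1). There was 1 lower call each with array weights (YEA6), a term for the deposited sign (FAT1), without replicate 3 (the 3′ side of KIN2/HRT3) and without replicate 4 (YCLWTy5-1A). The cause was not tested. The difference from untreated cells had 0 calls under each alternative, with 11 to 313 probes below 0.05 before adjustment in limma. With the replicate block over the shared numbers it had 0 calls and 239 such probes, and the RP level differed by 0.04. Over the alternatives run with a test, no exact permutation p for the RP level, the RPS level or the top ranks passed the threshold.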
